A study of Homo sapiens with 6 samples.

Results

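NK-92 is a human natural killer (NK) lymphoma cell line that grows in IL-2. The genes described here are those whose RNA was clearly more abundant in NK-92 cells carrying a short hairpin RNA against miR155HG, the host transcript of miR-155, than in cells carrying a control hairpin. They were chosen by these same measurements: a mean of at least 5 CPM (read counts scaled by each library's total) over the 6 libraries, a lowest shmiR155HG library above the highest shCtrl library, and a log2 ratio of the group means of at least 0.6. PTPRF, RMRP and the histone genes with HIST symbols were left out by name. The rule selected 72 of 36601 genes in the table, or 0.741% of the 9721 genes averaging 5 CPM or more, called expressed genes below. Because the values chose the genes, their differences between the groups are given as a description and carry no test.

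The shCtrl and shmiR155HG groups had 3 libraries each, and every culture had received IL-2 and IL-12, at 1000 U/mL and 10 ng/mL respectively, over the 12 h before RNA extraction, so no unstimulated cells enter the comparison. Both groups are lines with an introduced hairpin, and whether either is 1 clone is not given in the sources used here. Groups were read from the sample titles, because replicates 2 and 3 of shmiR155HG are labelled shmiR156HG and shmiR157HG under treatment. The study speaks in general of separate experimental repeats, but neither it nor the labels say whether these libraries of a group came from separate cultures, so SDs and p-values measure the spread between these libraries, which may be technical. Totals ran from 33454786 to 39157264 counts per library. MIR155HG itself had 73, 67 and 62 counts in the shCtrl libraries and 28, 19 and 10 counts in the shmiR155HG libraries, which did not overlap.

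Whole-library values that moved with the groups stand here once. By edgeR's quasi-likelihood test, 890 of 12263 genes tested (7.26%) were higher in shmiR155HG cells and 984 (8.02%) were lower, at an adjusted p under 0.05. Of the expressed genes, 16.4% had all shmiR155HG libraries above all shCtrl libraries. NK markers summed to 3769 to 3849 CPM in shCtrl and 3900 to 4009 CPM in shmiR155HG libraries, and of 12 tested, 2 were higher (IL2RB and KLRC1) and 3 lower (PRF1, GZMA and NCR3) by the same test. Markers of erythroid, epithelial and liver cells were near 0 in every library. The B cell list summed to 230 to 263 CPM and then 341 to 344 CPM, nearly all of it PAX5, the only one of its 5 genes that reached the test. The myeloid list summed to 13.0, 17.9 and 21.3 CPM in shCtrl and to 11.2, 13.9 and 11.2 CPM in shmiR155HG libraries, and of its 2 tested genes ITGAM was lower (log2 fold change -0.60 ± 0.17, edgeR adjusted p = 0.0161). Over all libraries the T cell list summed to 535 to 572 CPM and the fibroblast list, nearly all PDGFRB, to 190 to 211 CPM. Of the 13 mitochondrially encoded mRNAs, 8 were higher and 0 lower by the same test, with a median log2 fold change of 0.19. The part of these in the results below was not tested. In bulk RNA, fewer cells of a kind and less RNA per cell cannot be told apart.

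Several of the genes belong to the fast transcriptional response of stimulated lymphocytes. Immediate early genes such as EGR1, NR4A2 and BTG2 are transcribed within minutes of a signal without new protein synthesis, and many of their products are transcription factors or inhibitors that shape the later response. Others take part in the turnover of actin filaments, in signalling through nuclear receptors, or in the secreted growth factors and chemokines by which NK cells address myeloid and T cells.

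Short promoter stretches are shown for 3 of the selected genes, because each holds a complete match to a regulatory motif. They are the RefSeq sequences of GRCh38.p14, read 5′ to 3′ on the plus strand, with the motif in capitals. The HSPA6 stretch is chr1:161524458-161524487 and its capitals mark a heat shock element. The EGR1 stretch is chr5:138465364-138465393 and its capitals mark a serum response element. The MAFF stretch is chr22:38201929-38201958 and its capitals mark a cAMP response element.
HSPA6: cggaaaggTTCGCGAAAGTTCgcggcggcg
EGR1: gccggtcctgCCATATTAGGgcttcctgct
MAFF: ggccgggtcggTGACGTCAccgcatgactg

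The motifs begin 74, 105 and 54 bases before the RefSeq start used for HSPA6, EGR1 and MAFF. For MAFF this start lies inside the gene as GENCODE annotates it, downstream of the gene's first base at position 38200767 of chromosome 22. Of the 72 genes, 45 had an entry among 300-base promoters (250 bases before and 50 after the start, the first start listed per gene), and the 7769 expressed genes with such an entry were searched in the same way on both strands. The heat shock element, here 3 alternating units of GAA and its complement spaced by 2 bases and read on both strands, stood in 1 of the 45 promoters and in 0.283% of the expressed genes' promoters. The serum response element, searched as the CArG box, stood in 1 of 45, where it occurred at 2 positions of the EGR1 promoter, and in 1.03%. TGACGTCA stood in 2 of 45, those of MAFF and FBXL20, and in 3.57% of all. The EGR site GCGNGGGCG was found in 26.7% of the 45 promoters and 15% of all, and the AP-1 site TGANTCA in 8.89% and 4.05%. The NF-Y box CCAAT (48.9% and 38%) and the GC box GGGCGG (80% and 70.5%) were also more frequent in the 45, the cAMP half-site TGACG (26.7% and 37%) and the TATA box TATAAA (2.22% and 4.8%) were less frequent, and the STAT site TTCNNNGAA (6.67% and 6.23%) and the E-box CACGTG (11.1% and 10.7%) were close. The 45 promoters also had a higher median GC content, 69.3% against 65%, and the EGR letters are themselves rich in G and C. A match describes letters in a window and not a bound site.

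miR-155-5p, the mature miRNA cut from the silenced transcript, has the sequence below with its seed (bases 2 to 8) in capitals, followed by stretches of the 3′ untranslated regions of 3 of the genes with the complementary 7 bases in capitals.
hsa-miR-155-5p: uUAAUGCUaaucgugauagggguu
LDLRAD4: taaagaaggaAGCATTAttatatatta
RXRA: gatggacagtAGCATTAgaattgtgga
KDM7A: aaaacttaccAGCATTAaatgtaaaat

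A 3′ untranslated region was annotated for 58 of the 72 genes, and 8 of those held the 7-base match (13.8%): LDLRAD4, RXRA, KLHL24, OTUB2, C3orf18, RASA3, GLCCI1 and KDM7A. Among all expressed genes the share was 12.3%, at a median length of 1337 bases against 1226 bases for the 58. The rest of the 58 held no such match in the annotated region.

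The 72 genes were mostly of low abundance. Their mean level ran from 5.05 to 1184 CPM with a median of 11.6 CPM, against 51.1 CPM over all expressed genes. A mean under 10 CPM was found for 30 of them, 28 lay between 10 and 50 CPM, and 14 at 50 CPM or more. Together they summed to 2388 to 2566 CPM in the shCtrl libraries and to 4713 to 4770 CPM in the shmiR155HG libraries. The median log2 ratio was 0.72 and 13 genes reached a 2-fold ratio, while 33 lay under a log2 ratio of 0.7. The same limits turned downward would select 54 genes.

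**Figure D1:**
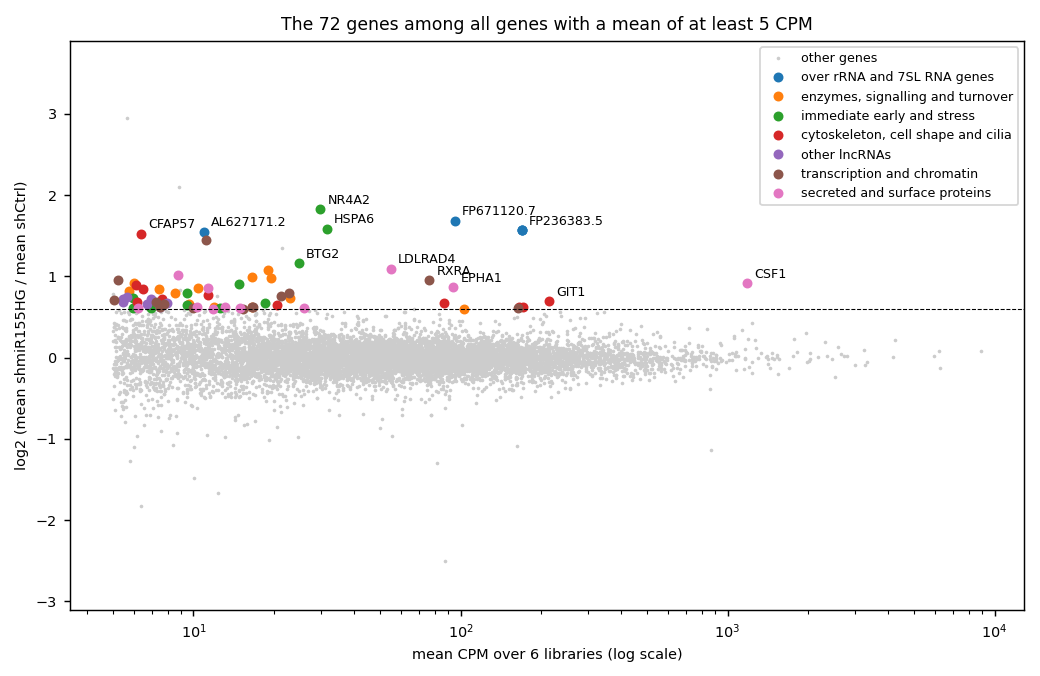
Mean CPM over the 6 libraries (log scale) against the log2 ratio of the shmiR155HG and shCtrl means, 1 point per expressed gene. Coloured points are the 72 selected genes by kind, grey points the others, and the dashed line is the limit of 0.6. CSF1 stands alone at 1184 CPM, and most coloured points lie under 50 CPM.

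The genes were sorted by hand into 7 kinds from their annotation. These comprised 14 genes of transcription and chromatin, 11 immediate early and stress genes and 11 secreted and surface proteins. Others were 11 genes of the cytoskeleton, cell shape and cilia, 7 other long non-coding RNAs and 5 RNAs over ribosomal or 7SL RNA genes. A mixed kind of enzymes, signalling and turnover held 13 genes, some of them of other or unassigned function. By biotype, 80.6% were protein coding and 16.7% long non-coding RNAs, against 95.5% and 4.25% of all expressed genes. The long non-coding share includes the 5 RNAs over ribosomal or 7SL RNA genes. Of these, FP236383.4, FP236383.5 and FP671120.6 share every 100-base window, so the same reads can count more than once in that share.

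**Figure D2:**
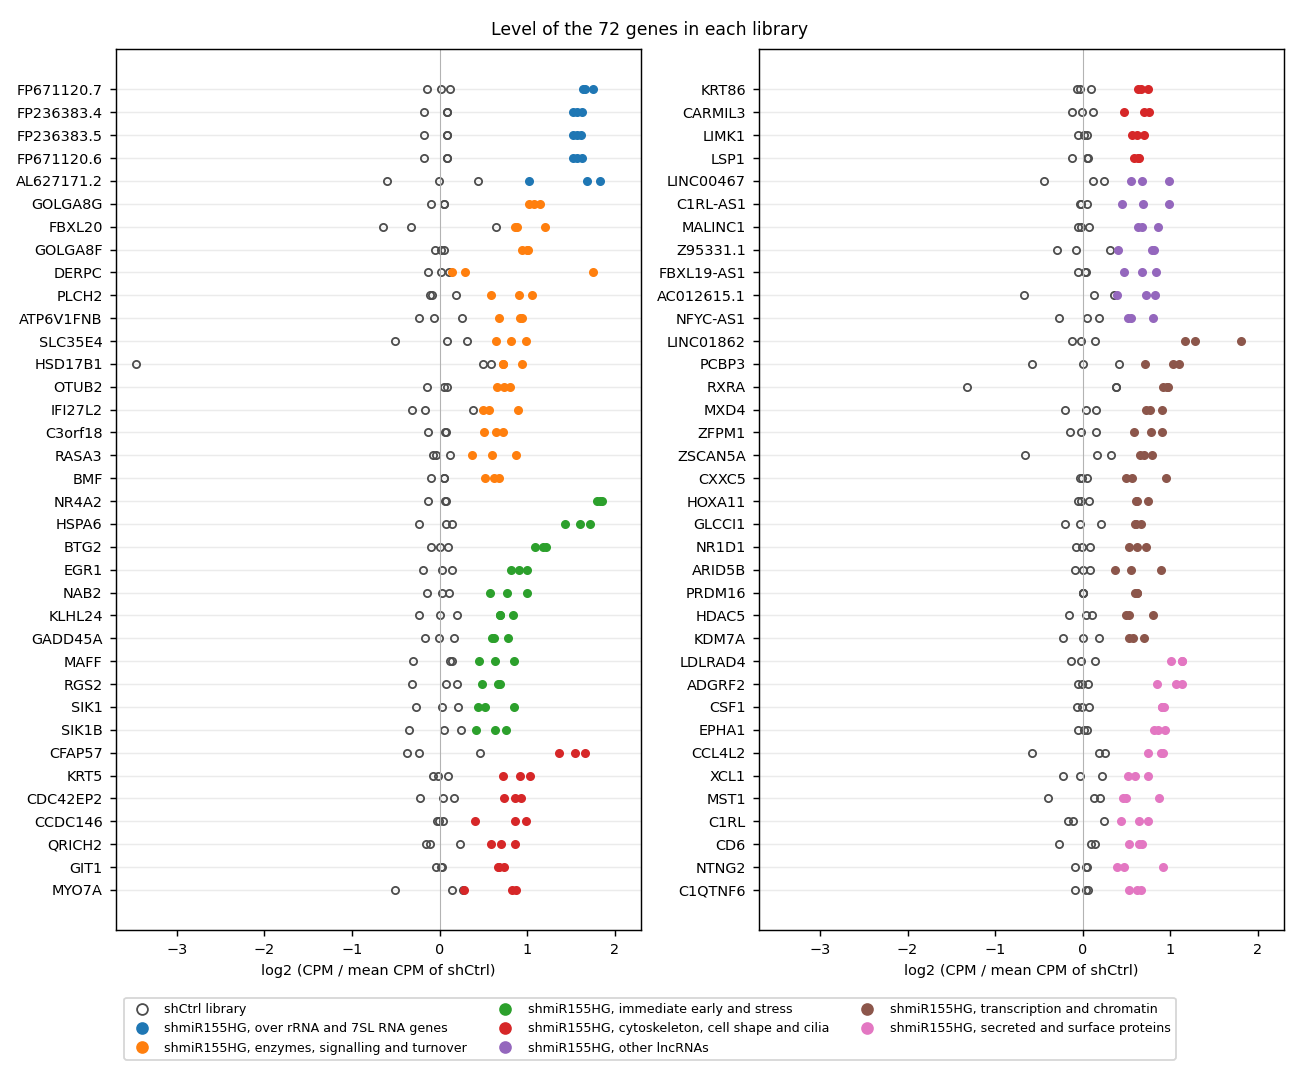
Level of each of the 72 genes in each library, as log2 of its CPM over the mean CPM of the shCtrl libraries. Open circles are shCtrl libraries and filled circles shmiR155HG libraries, coloured by kind. Circles of NR4A2, HSPA6, LINC01862 and the RNAs over ribosomal or 7SL RNA genes are among those farthest to the right. Single circles stand far from their group for HSD17B1, RXRA and DERPC.

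Among the immediate early and stress genes, NR4A2 had the largest ratio of all 72. NR4A2 encodes an orphan nuclear receptor of the NR4A family, which is induced by antigen receptor and cytokine signals. It stood at 12.0, 13.8 and 13.7 CPM in the shCtrl libraries and at 45.4, 46.8 and 47.4 CPM in the shmiR155HG libraries. The 6 values fell into 2 tight groups far apart, with a fitted log2 fold change of 1.82 ± 0.089 (SE, n = 3 and 3). Its relative NR4A3 was low, at 0.57 to 0.95 CPM in shCtrl and 1.47 to 2.72 CPM in shmiR155HG libraries, and was higher by a log2 fold change of 1.52 ± 0.39 (edgeR adjusted p = 0.00763). NR4A1 had a log2 fold change of 0.12 ± 0.21 and did not pass (edgeR adjusted p = 0.769).

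EGR1, a zinc finger factor of the early response, and NAB2, the corepressor that binds EGR factors and limits them, were both selected. EGR1 measured 9.03, 10.5 and 11.4 CPM in shCtrl and 18.2, 20.5 and 19.3 CPM in shmiR155HG libraries. NAB2 measured 7.05, 7.43 and 6.28 CPM and then 13.9, 10.3 and 11.8 CPM. The rule required both sets of shmiR155HG libraries to lie above their controls. The fitted log2 fold changes of EGR1 and NAB2 were 0.90 ± 0.13 and 0.79 ± 0.16 (SE). EGR2, which was too low for selection at 1.35 to 2.60 CPM in shCtrl libraries, reached 6.19 to 6.71 CPM in the shmiR155HG libraries (log2 fold change 1.78 ± 0.25, edgeR adjusted p = 7.47e-06). The close relative of NAB2, NAB1, had a log2 fold change of -0.04 ± 0.07 and did not pass (edgeR adjusted p = 0.748).

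BTG2, an antiproliferative protein that recruits the CCR4-NOT deadenylase, stood at 15.4, 14.3 and 16.3 CPM in shCtrl and at 34.7, 35.7 and 32.6 CPM in shmiR155HG libraries. GADD45A, a stress sensor that slows the cell cycle after DNA damage, stood at 12.7, 16.0 and 14.1 CPM and then at 22.0, 24.5 and 21.6 CPM. That the groups of each gene did not overlap was required by the rule. GADD45A was on a list of p53 targets, which did not hold BTG2. Of the 13 other tested genes on that list, 1 was higher, AEN, and 1 lower, MDM2, with a median log2 fold change of 0.12.

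Besides HSPA6, this kind also held MAFF, RGS2, KLHL24, SIK1 and SIK1B. MAFF, a small MAF transcription factor, had a log2 ratio of 0.65, RGS2, which shortens signalling of Gq-coupled receptors, one of 0.61, and KLHL24, a stress-induced substrate adaptor for a ubiquitin ligase, one of 0.74. SIK1, a kinase of the AMPK family that is induced by cAMP, ran from 4.56 to 6.33 CPM in shCtrl and from 7.46 to 9.86 CPM in shmiR155HG libraries. SIK1B shares 88.8% of its 100-base windows with SIK1 and is marked as an artefact of the assembly in GENCODE, so the values of SIK1 and SIK1B (log2 ratios 0.61 and 0.61) rest on reads that can be divided between them and are uncertain. The relatives SIK2 and SIK3 had log2 fold changes of 0.08 ± 0.067 and 0.20 ± 0.074, and neither passed (edgeR adjusted p = 0.502 and 0.0635).

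HSPA6, an HSP70 chaperone that is nearly silent until heat or protein stress, had the third largest ratio. It measured 17.4, 13.4 and 16.6 CPM in the shCtrl libraries and 51.7, 42.7 and 47.9 CPM in the shmiR155HG libraries (fitted log2 fold change 1.58 ± 0.098). Of its 100-base windows, 27.8% also occur in the pseudogene HSPA7. Other heat shock genes went in both directions: of 13 tested, 3 were higher (HSPA1A, HSPA8 and DNAJB1) and 2 lower (HSP90AA1 and HSPD1), with a median log2 fold change of -0.02, against 0.00 over all genes tested. HSPA1A, an inducible HSP70, had a log2 fold change of 0.75 ± 0.25, close to the threshold (edgeR adjusted p = 0.0442). HSPA1B had one of 0.40 ± 0.20 and did not pass (edgeR adjusted p = 0.195). The heat shock element printed above lies in the HSPA6 promoter.

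On a list of 29 immediate early genes, 23 reached the test, 15 were higher and 0 lower, with a median log2 fold change of 0.36. The list was drawn up with earlier results of these data known, and 3 of its genes (NR4A2, EGR1 and BTG2) were selected by these same values. Without those 3, 12 of 20 were higher and 0 lower, with a median of 0.32. With the test limited to genes averaging 5 CPM or more, 11 of the whole list were higher and 0 lower, with a median of 0.26. The other higher genes included KLF2, a quiescence factor of lymphocytes with a mean under 5 CPM (1.45 ± 0.29, edgeR adjusted p = 0.000894). JUND (0.57 ± 0.039, edgeR adjusted p = 2.56e-11) and PPP1R15A (0.53 ± 0.11, edgeR adjusted p = 0.000921), which restores translation after stress, were higher too. JUN, JUNB, KLF6, IER2 and ATF3 did not pass and lay between -0.08 and 0.05. DUSP2, a phosphatase of MAP kinases, lay just outside the selection with a log2 ratio of 0.599.

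**Figure D3:**
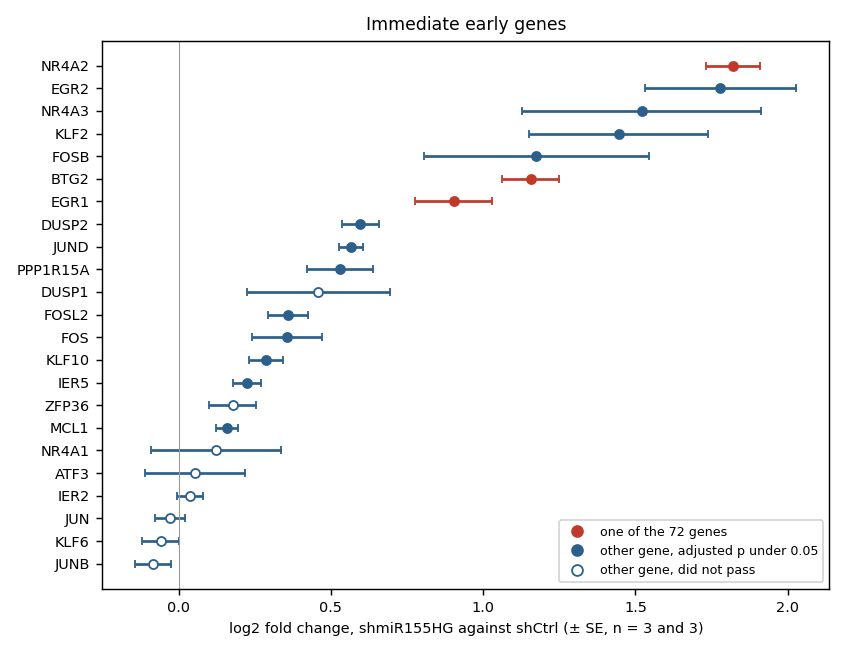
Fitted log2 fold change of the 23 tested immediate early genes, shmiR155HG against shCtrl, with SE bars (n = 3 and 3). Red marks NR4A2, BTG2 and EGR1, filled blue the other genes with an adjusted p under 0.05 and open symbols those that did not pass. The values run from -0.08 for JUNB to 1.82 for NR4A2.

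Among secreted and surface proteins, CSF1 was the most abundant of all 72 genes, also per length, at 296.6 CPM per kb of its transcript. CSF1 is the growth factor on which macrophages and their precursors depend. It stood at 786, 814 and 865 CPM in the shCtrl libraries and at 1536, 1539 and 1567 CPM in the shmiR155HG libraries. The fitted log2 fold change was 0.91 ± 0.033, the smallest SE of the 72. Its receptor gene CSF1R was at 2.60 to 5.57 CPM over all libraries, with a log2 fold change of -0.47 ± 0.25 that did not pass (edgeR adjusted p = 0.235).

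The chemokine genes CCL4L2, a relative of CCL4, and XCL1, the lymphotactin that attracts cross-presenting dendritic cells, were selected at low levels. CCL4L2 measured 9.65, 9.21 and 5.39 CPM and then 14.99, 15.2 and 13.6 CPM. XCL1 measured 12.0, 8.86 and 10.1 CPM and then 14.8, 17.3 and 15.7 CPM. Each has a related gene, although CCL4L2 shares only 3.91% of its 100-base windows with CCL4 and XCL1 only 2.39% with XCL2. CCL4 was higher by a log2 fold change of 0.21 ± 0.045 (edgeR adjusted p = 0.00281) and XCL2 by 0.41 ± 0.11 (edgeR adjusted p = 0.0111). CCL3 was lower (-0.14 ± 0.039, edgeR adjusted p = 0.0136). Among the 6 tested chemokine genes outside the selection, grouped by symbol, 2 were higher and 1 lower, with a median of 0.05.

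The rest of this kind comprised membrane and secreted proteins. EPHA1, a receptor tyrosine kinase for ephrin-A ligands, stood at 63.8, 67.3 and 68.6 CPM in shCtrl and at 117, 120 and 127 CPM in shmiR155HG libraries. LDLRAD4, a membrane protein that restrains TGF-beta signalling by binding SMADs, stood at 38.6, 34.4 and 31.8 CPM and then at 70.3, 76.5 and 76.8 CPM. The lowest shmiR155HG value of EPHA1 and LDLRAD4 was 1.70 and 1.82 times the highest shCtrl value. Their fitted log2 fold changes were 0.87 ± 0.055 and 1.09 ± 0.072. CD6, a scavenger receptor of T and NK cells that binds ALCAM, stood at 16.9, 22.7 and 21.9 CPM and then at 29.5, 32.7 and 32.0 CPM. ALCAM had a log2 fold change of 0.21 ± 0.089 and did not pass (edgeR adjusted p = 0.127). ADGRF2, an adhesion G protein-coupled receptor gene annotated as a pseudogene in GENCODE, had a log2 ratio of 1.02, and NTNG2, C1QTNF6, MST1 (macrophage-stimulating protein) and C1RL (a protease related to complement C1r) had ratios of 0.60 to 0.62.

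Genes of the actin cytoskeleton gave some of the least variable values. GIT1, a scaffold and GTPase activator for ARF proteins at focal adhesions, measured 160, 167 and 166 CPM in shCtrl and 263, 260 and 274 CPM in shmiR155HG libraries. LIMK1, the kinase that inactivates cofilin, measured 125, 134 and 131 CPM and then 200, 191 and 211 CPM. LSP1, an F-actin binding protein of leukocytes, measured 124, 140 and 141 CPM and then 211, 209 and 204 CPM. For all 3 the lowest shmiR155HG value lay far above the highest shCtrl value, and the fitted log2 fold changes were 0.69 ± 0.039, 0.62 ± 0.045 and 0.62 ± 0.046. Their relatives differed: LIMK2 was lower (-0.30 ± 0.066, edgeR adjusted p = 0.00203) and GIT2 did not pass (-0.09 ± 0.064, edgeR adjusted p = 0.406).

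Smaller cytoskeletal genes included CDC42EP2, an effector of CDC42 (log2 ratio 0.84), CARMIL3, a regulator of actin capping protein (0.64), and MYO7A, an unconventional myosin (0.68). CDC42EP2 shares 95.3% of its 100-base windows with an annotated gene that was not in the count table. KRT86, a hair keratin, stood at 64.1, 71.3 and 65.3 CPM and then at 106, 104 and 112 CPM, and its neighbour KRT81, with which it shares 25% of windows, was higher too (0.54 ± 0.039, edgeR adjusted p = 7.18e-11). KRT5, a basal epithelial keratin, was near the floor of the rule at 4.02 to 4.52 CPM and then 7.02 to 8.70 CPM. CFAP57, CCDC146 and QRICH2, which are known from cilia, centrosomes and sperm flagella, had log2 ratios of 1.53, 0.77 and 0.72 at means of 6.35, 11.3 and 7.60 CPM.

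Of the genes of transcription and chromatin, PRDM16 had the least spread. PRDM16 is a zinc finger protein with a PR domain, known from brown fat and stem cells. It stood at 129, 130 and 130 CPM in the shCtrl libraries and at 200, 196 and 199 CPM in the shmiR155HG libraries (fitted log2 fold change 0.61 ± 0.04). Its 6 libraries thus formed 2 narrow bands although the ratio was near the limit of 0.6. ZFPM1, the GATA cofactor FOG1, stood at 15.6, 17.5 and 14.3 CPM and then at 23.8, 29.5 and 27.2 CPM. MXD4, which pairs with MAX and opposes MYC, stood at 17.04, 18.4 and 14.5 CPM and then at 27.4, 28.4 and 31.1 CPM.

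Lower in level were HDAC5, a class IIa histone deacetylase (log2 ratio 0.61), KDM7A, a histone demethylase (0.60), ARID5B, a DNA-binding cofactor of a histone demethylase (0.62), CXXC5, a CpG-binding zinc finger protein (0.68), HOXA11, a homeobox factor (0.65), and ZSCAN5A (0.72). By symbol, 42 tested DNA and histone methyltransferase and demethylase genes other than KDM7A were grouped. Of these, 12 were higher and 2 lower, with a median log2 fold change of 0.08. Over all genes tested, 7.26% were higher and 8.02% lower, with a median of 0.00. Of 67 tested mediator, bromodomain and chromatin remodelling genes outside the selection, 8 were higher and 3 lower, with a median of 0.03. NR1D1, the haem receptor REV-ERB alpha of the circadian clock, ran from 12.4 to 13.9 CPM and then from 18.9 to 21.6 CPM. It overlaps THRA on the opposite strand, which had a log2 fold change of 0.45 ± 0.25 and did not pass (edgeR adjusted p = 0.252). HDAC5 and HOXA11 likewise overlap G6PC3 (-0.08 ± 0.086, edgeR adjusted p = 0.618) and HOXA11-AS (0.40 ± 0.32, edgeR adjusted p = 0.459). Strandedness of the counting is not given in the sources used here, so reads from a gene and its antisense partner cannot be told apart. LINC01862, with a log2 ratio of 1.45, is named NFILZ and annotated as protein coding in GENCODE v44. GLCCI1, a glucocorticoid-induced transcript, and PCBP3, an RNA-binding protein of the poly(rC) family, had ratios of 0.62 and 0.95.

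The ratios of RXRA, the shared partner of many nuclear receptors, and of 3 genes of other roles changed when 1 library was left out. RXRA stood at 20.8, 67.8 and 67.8 CPM in shCtrl and at 102, 101 and 98.3 CPM in shmiR155HG libraries. Without shCtrl replicate 1 its log2 ratio was 0.57, under the limit, and its paralog RXRB had a log2 fold change of 0.11 ± 0.074 (edgeR adjusted p = 0.38). HSD17B1, which makes oestradiol, stood at 0.57, 9.37 and 8.76 CPM and then at 10.3, 12.0 and 10.3 CPM, and its ratio was 0.26 without shCtrl replicate 1. DERPC stood at 3.78, 4.18 and 4.47 CPM and then at 4.57, 14.0 and 5.05 CPM, and its ratio was 0.22 without shmiR155HG replicate 2. FBXL20, an F-box protein, went the other way: at 7.08, 8.86 and 17.4 CPM and then 25.5, 20.4 and 20.2 CPM, its ratio was 1.47 without shCtrl replicate 3 and 0.99 with it.

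DERPC and HSD17B1 share exon sequence with other genes. DERPC shares 96.4% of its 100-base windows with CHTF8, which was at 88.8 to 96.8 CPM over all libraries and did not pass (0.07 ± 0.052, edgeR adjusted p = 0.42). HSD17B1 overlaps AC067852.2 on the opposite strand, which was lower (-0.43 ± 0.11, edgeR adjusted p = 0.00708). These 4 genes had the largest SEs of the 72, from 0.39 to 0.93, and the other 68 passed the edgeR test on the contrast that selected them, so that count is given beside the 7.26% of all genes tested without further reading.

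**Figure D4:**
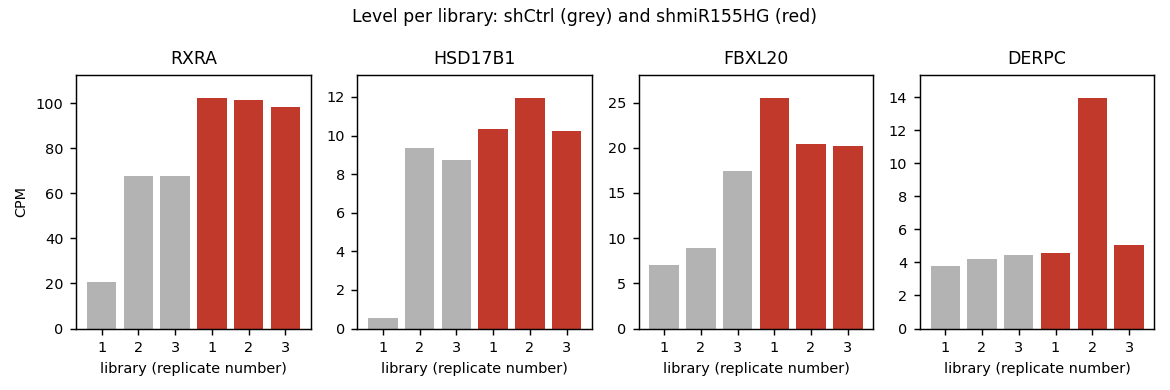
CPM of RXRA, HSD17B1, FBXL20 and DERPC in each library, shCtrl in grey and shmiR155HG in red, with the replicate number below. One bar in each panel departs from the other bars of its group, such as 20.8 CPM for RXRA in shCtrl replicate 1 and 14.0 CPM for DERPC in shmiR155HG replicate 2.

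The RNAs over ribosomal and 7SL RNA genes had the highest ratios as a kind, from 1.55 to 1.68. FP236383.4, FP236383.5 and FP671120.6 are single-exon genes of 923 bases on chromosome 21, each lying wholly within an 18S ribosomal RNA gene on its opposite strand (chr21:8393419-8394341, chr21:8437629-8438551 and chr21:8210384-8211306, hg38). FP236383.5 stood at 91.1, 75.5 and 90.7 CPM in shCtrl and at 253, 263 and 246 CPM in shmiR155HG libraries. The 3 genes share every 100-base window and their mean levels lay between 169.4 and 169.9 CPM, so they are not independent measurements. FP671120.7, within the 18S pseudogene RNA18SP5 at chr21:8254592-8255514, shares 75.8% of its windows with them. It stood at 48.9, 40.8 and 45.5 CPM and then at 140, 152 and 142 CPM.

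Reads of 18S ribosomal RNA and of an antisense transcript cannot be told apart in these counts. The libraries were made from RNA purified on oligo(dT) beads, and 18S ribosomal RNA carries no poly(A) tail. RMRP, also an RNA without a poly(A) tail, was left out of the selection by name. It had 4, 10 and 18 counts in the shCtrl libraries and 70, 117 and 41 counts in the shmiR155HG libraries. The histone gene HIST1H2AC, also left out by name, had 10.98 to 14.4 CPM and then 30.1 to 31.6 CPM. Whether its reads came from mRNA with a tail cannot be told from these counts. Of a list of 25 RNAs without a poly(A) tail, 0 reached the test, so it gives no wider view. The part of such RNAs in these values was not tested. AL627171.2, on chromosome 14, contains the 7SL RNA gene RN7SL2 over 13.3% of its exon bases and stood at 7.49, 5.52 and 3.65 CPM and then at 17.8, 19.8 and 11.3 CPM.

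Of the other long non-coding RNAs, all 7 had means under 10 CPM and log2 ratios between 0.63 and 0.75. They were LINC00467, MALINC1, Z95331.1, FBXL19-AS1, AC012615.1, NFYC-AS1 and C1RL-AS1. C1RL-AS1 lies opposite C1RL and the pair was selected together, at log2 ratios of 0.72 and 0.62. NFYC, opposite NFYC-AS1, had a log2 fold change of 0.11 ± 0.061 and did not pass (edgeR adjusted p = 0.239). OTUB2 and IFI27L2, 78849 bases apart on chromosome 14, were the only selected pair within 100 kb that neither overlapped nor lay in the ribosomal RNA arrays.

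In the mixed kind of enzymes, signalling and turnover, BMF was the most abundant. BMF is a BH3-only protein that promotes apoptosis and is released from the cytoskeleton under stress. It measured 76.4, 85.0 and 85.0 CPM in shCtrl and 126, 118 and 131 CPM in shmiR155HG libraries. OTUB2, a deubiquitinase, measured 15.6, 17.8 and 18.3 CPM and then 27.1, 29.96 and 28.7 CPM. RASA3, a GTPase activator for RAS and RAP1 known from platelets, ran from 8.91 to 10.2 CPM and then from 12.1 to 17.2 CPM. PLCH2, a phospholipase C, had a log2 ratio of 0.86 at a mean of 10.4 CPM, and SLC35E4, a solute carrier, one of 0.82 at 5.72 CPM.

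The golgin genes GOLGA8F and GOLGA8G, copies on chromosome 15 that share 89.7% of their windows, were both selected. GOLGA8G stood at 12.6, 12.7 and 11.4 CPM and then at 25.8, 24.7 and 26.9 CPM, and GOLGA8F had a log2 ratio of 0.98. Because reads can be divided between such copies, neither value is certain on its own. ATP6V1FNB, which shares 42.6% of its windows with KCP on the opposite strand, had a ratio of 0.85, while KCP had a log2 fold change of 0.21 ± 0.28 and did not pass (edgeR adjusted p = 0.693). C3orf18, of unassigned function, and IFI27L2, a relative of the interferon-induced IFI27, had ratios of 0.63 and 0.66.

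The limits of the rule cut through a continuous range. Just inside the ratio limit lay KDM7A (0.602), C1QTNF6 (0.602) and BMF (0.604), and just outside lay DUSP2 (0.599), CBX7 (0.596) and AL662844.4 (0.59). Just inside the level limit lay ZSCAN5A (5.05 CPM), PCBP3 (5.23 CPM) and MALINC1 (5.46 CPM), and just outside lay THSD1 (4.89 CPM), ZNF524 (4.80 CPM) and ASIC3 (4.77 CPM). UTP14C and SNX22 met both limits and were left out only because their groups overlapped.

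Relative spread was larger in the 72 genes than in expressed genes at large. The median coefficient of variation was 10.3% in shCtrl and 8.84% in shmiR155HG libraries, against 5.19% and 4.90% over all expressed genes, whose levels were higher. When each library was left out in turn, 37 genes kept a log2 ratio of at least 0.6 each time and 35 fell under it at least once. DERPC and HSD17B1 were the only genes that fell under 0.3.

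**Figure D5:**
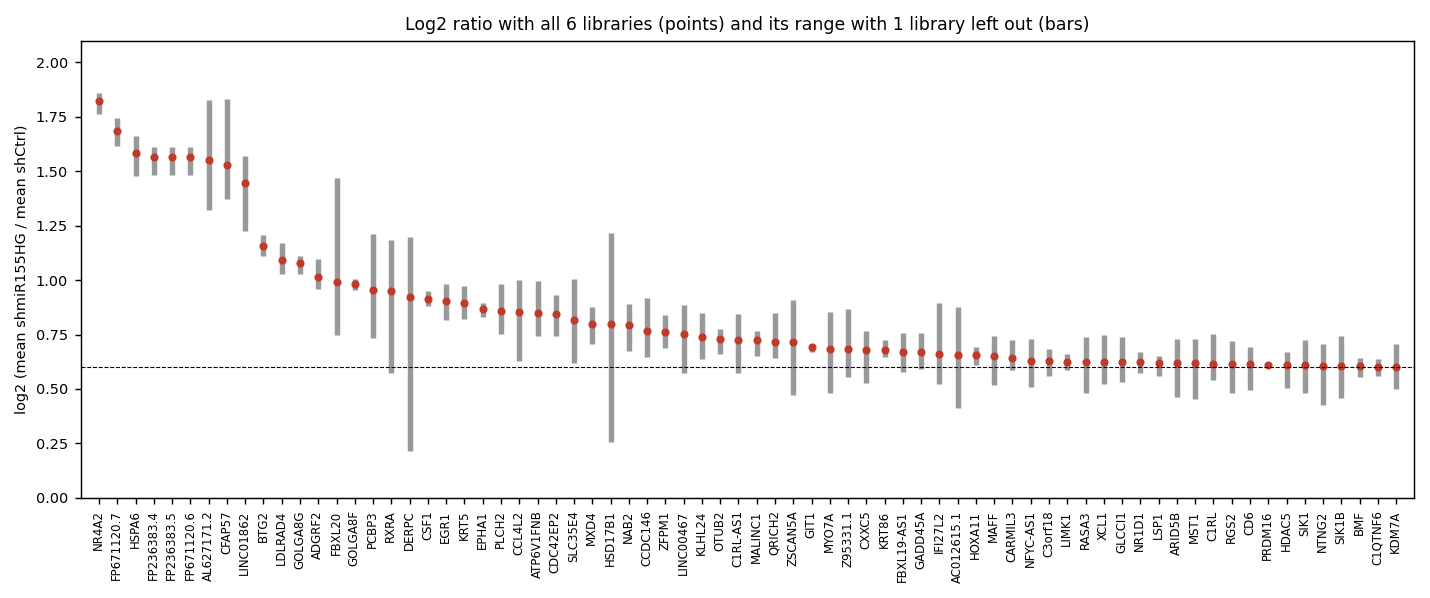
Log2 ratio of the group means for each of the 72 genes with all 6 libraries (points) and the range of that ratio with 1 library left out (bars). The dashed line is the limit of 0.6. NR4A2, CSF1, GIT1 and PRDM16 have short bars, and DERPC, HSD17B1, RXRA and FBXL20 have the longest.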

How the data were processed

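Poly(A) RNA libraries of 6 NK-92 samples were sequenced as read pairs. HISAT2 alignment to hg38 and StringTie quantification were done by the authors, who deposited a matrix of gene counts. Tool versions, the annotation release and strandedness are not given in the sources used here. No column was left unassigned.

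CPM were computed from column totals, and the selection rule was applied to them. Genes over 1 CPM in at least 2 libraries were fitted with edgeR 4.0.16 (R 4.3.3; TMM, robust quasi-likelihood, Benjamini-Hochberg adjusted p under 0.05), and SEs were taken from the fit. DESeq2 1.42.0 served as an alternative. In simulated counts with known changes the p-values of unchanged data were close to uniform, but the share of false calls among calls was on average above the nominal level, so calls near the threshold deserve caution. Positions and overlaps are from GENCODE v44, promoters and miRNAs from RefSeq (GRCh38.p14). The serum response element was first searched as 1 exact sequence and was widened to the CArG box after its matches had been seen.

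The 72 genes, their kinds and the gene lists were chosen with earlier results of these data known. Genes were named by rank of ratio and level, by nearness to the limits, by list and by kind; partners were added afterwards where a gene overlaps, resembles or pairs with a selected one.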

Additional observations from a re-analysis of the deposited data

How the results depend on the processing

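The count of selected genes depended on its limits: 229 with a minimum mean of 1 CPM, 42 with one of 10 CPM, 133 with a log2 ratio of at least 0.5 and 13 with at least 1. It was 67 by TMM-scaled totals, 69 by DESeq2 size factors, 74 with no requirement on overlap and 68 to 86 with 1 library left out. Genes higher by edgeR numbered 580 to 891 with 1 library left out, the lowest without shmiR155HG replicate 2, and genes lower numbered 674 to 917. The fitted change of all 72 genes stayed above 0 in all 14 other fits. Because the rule admitted only genes without overlap between the groups, this sign was set by the selection and is no support. The median of the immediate early genes was 0.26 under a minimum mean of 5 CPM, where fewer genes are tested, and 0.30 to 0.42 with 1 library left out. Of the values for single genes and the other lists, 1922 stayed within the spread or 1.5 times the count. The other 94 were all of lists, and the cause was not tested. For single genes the limit was the spread between libraries, which leaving out 1 of 3 libraries could hardly exceed. All 1008 values of the 72 genes fell within it and are no measure of stability. They include the fitted change of DERPC, 0.92 with all libraries and 0.21 without shmiR155HG replicate 2. With the replicate number as a block, 829 genes were higher and 909 lower, and 14 immediate early genes were higher. Same-numbered libraries showed no pairing, with correlations of their deviations from -0.0171 to -0.00207. Genes under 10 CPM rest on few counts, down to 22 in 1 library.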
